A study of Mus musculus with 4 samples.

Results

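Immunoglobulin variable (V) genes were taken as all genes whose symbol begins with Ighv, Igkv or Iglv in the gene list of the A20ZF7 library and whose identifier is also in the WT list. There were 348 such genes among the 31,950 genes that both libraries list, of which 185 were heavy chain Ighv genes, 160 were kappa Igkv genes and 3 were lambda Iglv genes. At least 1 unique molecular identifier (UMI, which counts a captured RNA molecule once) was found for 214 of them in WT, for 228 in A20ZF7 and for 243 in either library. Usage was the percentage of heavy chain or of light chain V UMIs that belonged to a gene. It was measured in plasma cell barcodes, in B cell barcodes and in sparse barcodes of 1 to 50 UMIs.

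Lamina propria cells of the small intestine had been profiled by single-cell RNA-Seq in 12-week-old WT mice and A20ZF7 mice, the latter homozygous for a point mutation knocked into the zinc finger 7 motif of A20 (Tnfaip3). Cells of 2 mice per genotype were pooled into 1 gene expression library, and T cells and innate lymphoid cells were enriched by negative selection. The selection is designed to remove B lineage cells, so plasma and B cell barcodes were what it left behind. There was 1 library per genotype and no test between genotypes was possible, and the 95% intervals given in parentheses cover counting error only. The WT mice could be told apart by hashtag antibodies in part of the barcodes, which gave the spread between mice of 1 genotype. The antibody files of the A20ZF7 library were not used, so its mice were not separated.

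Each developing B cell joins 1 V gene to D and J segments at the heavy chain locus, and 1 V gene to a J segment at a kappa or a lambda locus. The joined V region encodes most of the antigen binding site, and the daughters of a B cell inherit it. Plasma cells are the terminally differentiated B cells that secrete antibody, and those of the small intestinal lamina propria mostly make IgA. A plasma cell therefore carries RNA of mainly 1 heavy and 1 light V gene, at very high levels.

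The recombinase RAG finds a V gene by a heptamer and a nonamer next to its 3′ end, separated by a spacer of 23 bases at Ighv and Iglv genes and of 12 bases at Igkv genes. The 5 heavy chain genes of highest mean usage over both genotypes are shown first because the values below turn on them. Each line gives the last 20 bases of the V exon in lower case, the heptamer in capitals, the spacer in lower case and the nonamer in capitals, 5′ to 3′, from GRCm38 (mm10). A motif was read at the spacing that matched best.
Ighv3-6, chr12:114288113-114288171 (minus strand): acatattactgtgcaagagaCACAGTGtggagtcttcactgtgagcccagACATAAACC
Ighv5-17, chr12:113859110-113859168 (minus strand): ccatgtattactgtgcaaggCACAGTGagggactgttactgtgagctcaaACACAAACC
Ighv1-64, chr12:115507506-115507564 (minus strand): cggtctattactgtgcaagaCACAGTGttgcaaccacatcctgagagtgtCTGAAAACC
Ighv1-81, chr12:115920240-115920298 (minus strand): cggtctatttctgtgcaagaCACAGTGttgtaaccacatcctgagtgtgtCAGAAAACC
Ighv1-26, chr12:114788334-114788391 (minus strand): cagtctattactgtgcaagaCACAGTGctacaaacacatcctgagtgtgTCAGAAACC
The 5 light chain genes chosen in the same way and the other lambda genes follow. Igkv1-110 and Igkv1-117 have the same heptamer, spacer and nonamer, as do Iglv1 and Iglv2.
Igkv10-96, chr6:68631935-68631982 (minus strand): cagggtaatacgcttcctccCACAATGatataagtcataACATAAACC
Igkv12-46, chr6:69764495-69764542 (minus strand): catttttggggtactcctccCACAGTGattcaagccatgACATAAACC
Igkv1-110, chr6:68271248-68271295 (plus strand): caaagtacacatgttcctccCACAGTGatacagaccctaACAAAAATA
Igkv1-117, chr6:68121808-68121855 (plus strand): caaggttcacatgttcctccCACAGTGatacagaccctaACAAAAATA
Iglv1, chr16:19084978-19085036 (minus strand): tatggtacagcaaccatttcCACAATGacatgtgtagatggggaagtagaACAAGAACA
Iglv2, chr16:19260362-19260420 (minus strand): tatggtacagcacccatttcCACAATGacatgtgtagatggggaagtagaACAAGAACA
Iglv3, chr16:19241168-19241226 (minus strand): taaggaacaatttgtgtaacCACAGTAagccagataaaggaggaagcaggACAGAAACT
The last set holds 3 V genes described below for their RNA in sparse barcodes, of which Igkv11-118 is annotated as a pseudogene.
Igkv16-104, chr6:68426053-68426100 (plus strand): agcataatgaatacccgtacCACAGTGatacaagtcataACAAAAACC
Igkv18-36, chr6:69992437-69992484 (minus strand): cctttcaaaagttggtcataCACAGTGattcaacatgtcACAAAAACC
Igkv11-118, chr6:68105861-68105908 (plus strand): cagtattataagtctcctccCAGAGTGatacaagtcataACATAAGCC

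An exact heptamer CACAGTG, searched on the strand of the gene alone, stood at the 3′ end of 217 of the 348 V genes (62.4%). It was present in 79.5% of the 83 Ighv genes that led a plasma barcode, in 53.3% of the 30 functional Ighv genes that led none and in 37.1% of the 70 Ighv pseudogenes. For Igkv the shares were 87.5% of 80, 85.0% of 20 and 36.7% of 60. No Iglv gene had the exact heptamer. These are matches of letters in 1 window of the reference and were not tested as sites.

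The WT matrix listed 576,003 barcodes and a sum of 35,289,432 UMIs, and the A20ZF7 matrix 612,069 barcodes and 54,587,004 UMIs. Filters on gene number and mitochondrial UMIs, and in WT alone the removal of barcodes with both hashtags, kept 24,826 and 51,855 barcodes. Plasma barcodes were kept barcodes with at least 3 of 11 plasma cell genes such as Mzb1, Derl3 and Xbp1 and at least 5% of UMIs from constant region genes and Jchain, and no V gene was used to choose them. The gate found 433 plasma barcodes in WT and 991 in A20ZF7, which were 1.74% and 1.91% of kept barcodes. A further 73 kept barcodes in WT and 633 in A20ZF7 reached 5% but had fewer than 3 of the plasma cell genes. Exactly 3 of these genes were found in 36 and 258 plasma barcodes. The marker rule thus cut the libraries unequally, and the shares of kept barcodes depend on it. Of the WT plasma barcodes, 133 carried the hashtag of mouse 1, 101 that of mouse 2 and 199 neither, and 88 with both hashtags had been removed. The antibody to CD138, the plasma cell surface antigen encoded by Sdc1, did not separate plasma barcodes, with a median of 8 counts in them and 8 in other WT barcodes.

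Several facts touch all comparisons below. T cell receptor and CD3 genes were found in more A20ZF7 plasma barcodes: at least 2 of 6 such genes were detected in 40.2% of them and in 14.1% of WT plasma barcodes, and all 6 genes were past 2-fold higher relative to all UMIs, by 3.70 to 6.21 times. Barcodes with both hashtags could be removed from WT alone. Values without the barcodes that held T cell genes are given beside several of the results. The gene lists of the libraries come from different annotation releases, with 1,746 identifiers in WT alone and 335 in A20ZF7 alone, so that the effects of annotation and of genotype on a gene's count cannot be told apart. Barcodes were also shared between the libraries. Of kept barcodes, 1,774 were listed as kept in both, and no plasma barcode was plasma in both. How many barcodes 2 libraries share by coincidence was not worked out, so the counts of shared barcodes alone do not show shared RNA. Of the 433 WT plasma barcodes, 370 recurred as sparse barcodes of the A20ZF7 library and held 589 V UMIs there, and 541 of those (91.9%) were of the V genes that led the same barcode in WT. In the other direction, 831 of the 991 A20ZF7 plasma barcodes recurred as sparse WT barcodes with 383 V UMIs, of which 320 (83.6%) were of the same leading genes. These UMIs made up 8.14% of the V UMIs in A20ZF7 sparse barcodes and 1.39% of those in WT sparse barcodes.

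V genes supplied 29.2% of all UMIs in WT plasma barcodes and 14.5% in A20ZF7 plasma barcodes (492,970 of 1,688,603 and 352,591 of 2,431,503 UMIs). The median plasma barcode held 991 V UMIs in WT and 277 in A20ZF7, with median totals of 3,625 and 2,273 UMIs. WT mouse 1 had 27.7% V UMIs and WT mouse 2 had 29.5%, both above A20ZF7. Without the barcodes that held T cell genes the shares were 29.2% and 15.1%. Constant region genes differed less between genotypes, but the plasma gate had required at least 5% of UMIs from constant genes and Jchain. No V gene was in the gate, so V and constant genes were not compared on equal terms. Of kept barcodes with enough plasma cell genes, 2 in WT and 47 in A20ZF7 were at 5% to 8%, and 4 and 35 at 2% to 5%. Heavy constant genes supplied 15.7% and 12.9% of UMIs, and light constant genes 10.2% and 8.29%.

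V UMIs were also lower in A20ZF7 relative to the constant region of the same chain. Igha, Igkc and other constant genes in this measure were part of the plasma gate, and V genes were not. There were 40.5 heavy V UMIs per 100 heavy constant UMIs in WT and 20.9 in A20ZF7, and 225 and 142 light V UMIs per 100 light constant UMIs. Mouse 1, mouse 2 and the WT barcodes without a hashtag gave 40.2, 48.8 and 36.0 for the heavy chain and 225, 254 and 208 for the light chain, all above A20ZF7. Without the barcodes that held T cell genes, the values for WT and A20ZF7 were 37.6 and 16.99 for the heavy chain and 214 and 121 for the light chain. The difference was not particular to plasma barcodes. Other kept barcodes, neither plasma nor B cell and under 2% constant region UMIs, had 28.26 and 13.57 (heavy) and 260.7 and 138.3 (light). Sparse barcodes had 31.95 and 33.24 (heavy) and 253.9 and 184.2 (light). B cell barcodes, with few V UMIs, had 10.2 and 10.39 (heavy) and 80.36 and 94.38 (light). Why these classes differed was not tested. In plasma barcodes the difference ran through nearly every V gene. Among 39 heavy genes that led at least 3 barcodes in each genotype, the ratio was lower in A20ZF7 for 38, with a median A20ZF7 to WT ratio of 0.555 (range 0.163 to 1.17). Among 37 such light genes it was lower for 36, with a median of 0.659 (range 0.302 to 1.11). Ighv1-22 and Igkv6-20 were the exceptions, named after their values were seen. All genes of a genotype share 1 library, so these counts of genes are not separate measurements of the difference.

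**Figure D1:**
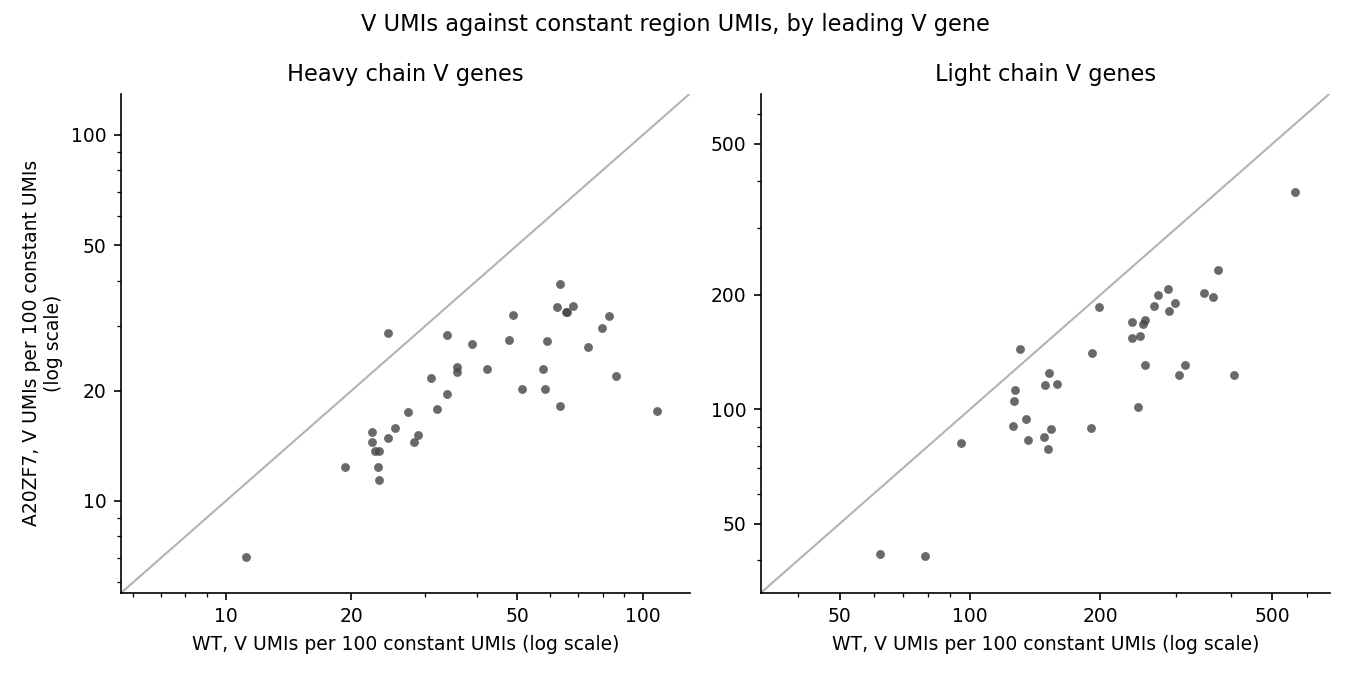
V UMIs per 100 constant region UMIs in plasma barcodes led by each V gene, WT on the horizontal and A20ZF7 on the vertical axis, both on log scales, for the 39 heavy and 37 light genes that led at least 3 barcodes in each genotype. Each point is 1 gene and the gray line marks equal values; 38 heavy and 36 light genes lie below it.

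The V genes also differed from each other in this measure. In barcodes led by Ighv3-6 there were 67.9 heavy V UMIs per 100 heavy constant UMIs in WT and 34.2 in A20ZF7, against 27.3 and 17.5 in barcodes led by Ighv1-26. For the light chain, barcodes led by Igkv12-46 had 375 and 233 V UMIs per 100 constant UMIs and those led by Igkv10-96 had 154 and 88.8. UMIs of this 5′ assay count RNA molecules and were not divided by gene length. A gene's share of V UMIs thus weighs barcodes by how many V UMIs its RNA yields, and the number of barcodes that a gene leads is given beside it.

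Nearly every plasma barcode was dominated by 1 heavy and 1 light V gene. The leading gene was named where a barcode held at least 5 V UMIs of the chain, which left 426 WT and 912 A20ZF7 barcodes for the heavy chain and 433 and 986 for the light chain. The leading gene's median share of heavy V UMIs was 100% in both genotypes, and of light V UMIs 98.1% in WT and 97.1% in A20ZF7. It was above 90% for the heavy chain in 93.2% of WT and 94.7% of A20ZF7 barcodes, and for the light chain in 91.7% and 88.4%. A second gene reached 20% of the chain's V UMIs in 5.399% and 2.96% of barcodes for the heavy chain and in 6.47% and 5.07% for the light chain. V genes had no part in the plasma gate, and removing the barcodes with T cell genes left 94.6% and 95.7% above 90% for the heavy chain and 93.0% and 87.9% for the light chain.

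Iglv1 stood apart from this pattern. It led 15 of 433 WT and 47 of 986 A20ZF7 barcodes, yet at least 1 Iglv1 UMI was found in 87.8% of the 418 WT plasma barcodes and 76.7% of the 939 A20ZF7 plasma barcodes that another light gene led. The median was 8 Iglv1 UMIs per such barcode in WT and 3 in A20ZF7. Igkv10-96, which led more barcodes, was found in 9.41% and 9.20% of the barcodes that another light gene led, and Igkv12-46, Igkv1-110 and Igkv1-117 in 2.20% to 11.9%, each with a median of 0. Among kept barcodes that were not plasma, whose median depth was lower (754 and 724 UMIs), Iglv1 was found in 8.72% and 8.63%. Iglv3 followed Iglv1, in 53.8% of WT plasma barcodes, none of which it led, and in 29.3% of A20ZF7 plasma barcodes led by another gene, against 0.295% and 0.364% of kept barcodes that were not plasma. Iglv2 did not, at 4.18% and 1.83%. Barcodes led by another gene held 31.7% of all Iglv1 UMIs of WT plasma barcodes and 28.6% of those of A20ZF7. Iglv1 shared 4.97% of its 90-base windows with Iglv2 and with no other V gene.

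By UMI usage, 95 of 170 V genes with enough UMIs were past 2-fold between genotypes in plasma barcodes, 55.9% of those tested, with 66 higher in A20ZF7 (38.8%) and 29 lower (17.1%). Without the barcodes that held T cell genes, 93 of 159 were. Enough meant at least 20 UMIs in the higher genotype. Over all genes, scaled by all UMIs (CPM), in the same barcodes, 36.1% were past 2-fold, 34.0% higher and 2.17% lower. Between the WT mice, 77 of 120 V genes were past 2-fold (64.2%), against 8.17% of all genes. V genes were thus past 2-fold between mice of the same genotype at least as often as between genotypes, on fewer barcodes. By chain, 41 of 82 Ighv genes and 54 of 88 light chain genes (61.4%) were past 2-fold between genotypes. Scaled by all UMIs in place of V UMIs, 111 V genes were past 2-fold (65.3%), 41 higher (24.1%) and 70 lower (41.2%). The median CPM ratio of A20ZF7 to WT was 0.647 for V genes and 1.69 for all tested genes.

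Among heavy chain genes, Ighv3-6 had the highest usage in both genotypes, with 11% of heavy V UMIs in WT and 8.63% in A20ZF7. It led 30 of 426 WT barcodes (7.04%, 4.80–9.90) and 48 of 912 A20ZF7 barcodes (5.26%, 3.91–6.92), with 7.52% in mouse 1 and 10.1% in mouse 2. Ighv5-17 led 28 and 45 barcodes (6.57% and 4.93%), with 3.76% in mouse 1 and 8.08% in mouse 2, so that the A20ZF7 value lay between the mice. Ighv1-64 led 38 and 50 barcodes (8.92% and 5.48%), and the A20ZF7 value again lay between mouse 1 (5.26%) and mouse 2 (8.08%). Ighv1-81 led 15 and 36 barcodes (3.52% and 3.95%) and Ighv1-26 led 21 and 56 (4.93% and 6.14%). Their ratios of A20ZF7 to WT barcode shares were 1.12 (0.599–2.20) and 1.25 (0.742–2.17). The ratios for Ighv3-6 and Ighv5-17 were 0.747 (0.464–1.22) and 0.751 (0.458–1.25), and for Ighv1-64 0.615 (0.395–0.963). Of the 38 WT barcodes that Ighv1-64 led, 15 were led by Igkv5-48 for the light chain, a pair found in 0 A20ZF7 barcodes. The intervals take barcodes as independent, which cells descended from 1 B cell are not.

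Among light chain genes Igkv10-96 led the most barcodes in both genotypes, with 11.1% of light V UMIs in WT and 4.87% in A20ZF7, where Iglv1 (7.17%) and Igkv1-117 (6.21%) had more UMIs. It led 61 of 433 WT barcodes (14.1%, 10.9–17.7) and 62 of 986 A20ZF7 barcodes (6.29%, 4.86–7.99), a ratio of 0.446 (0.308–0.646). Mouse 1 was at 16.5% (22 of 133) and mouse 2 at 8.91% (9 of 101, interval 4.16–16.2), so both mice were above A20ZF7, and the interval of mouse 2 covered the A20ZF7 value. Igkv12-46 led 22 and 30 barcodes (5.08% and 3.04%; ratio 0.599, 0.334–1.09) and Igkv1-110 led 20 and 39 (4.62% and 3.96%; ratio 0.856, 0.488–1.55). Igkv1-117 led 16 and 44 (3.70% and 4.46%), with 6.02% in mouse 1 and 1.98% in mouse 2. Igkv4-59, named after its values were seen, led 9 WT barcodes (2.08%) and 55 A20ZF7 barcodes (5.58%), a ratio of 2.68 (1.32–6.18), with 2.26% in mouse 1 and 2.97% in mouse 2.

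**Figure D2:**
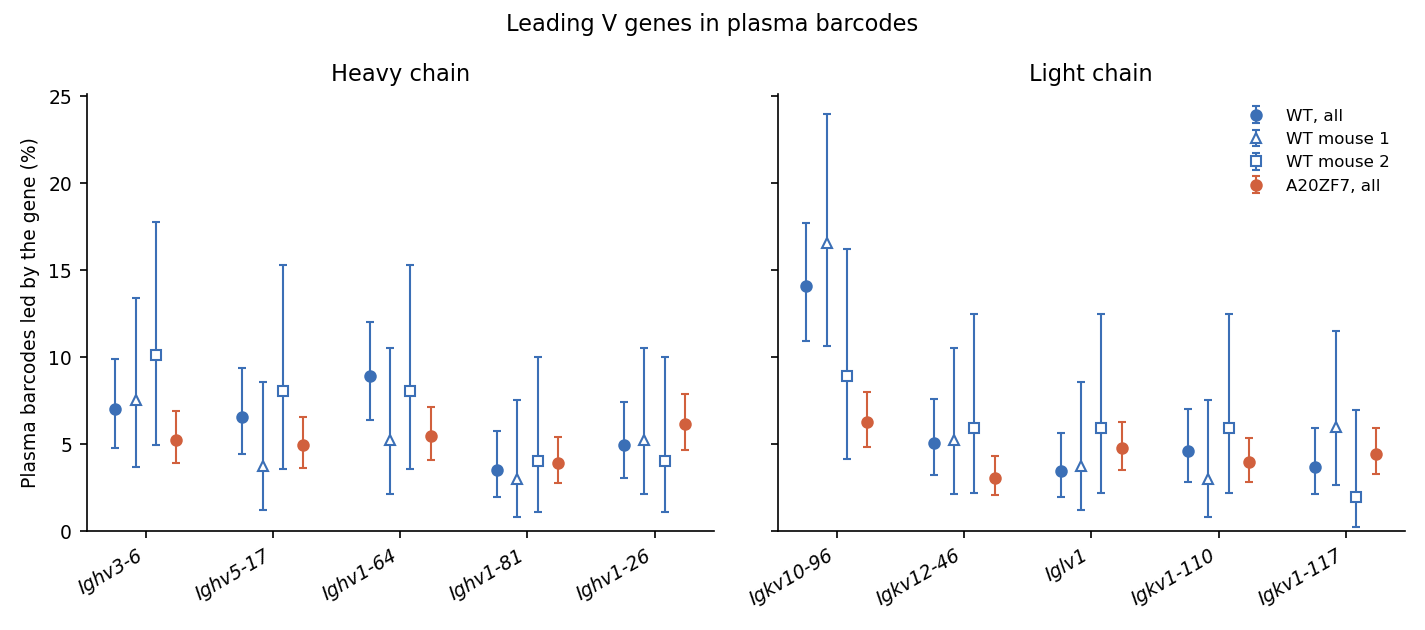
Percentage of plasma barcodes led by each of the 5 heavy and 5 light V genes of highest usage, with 95% binomial intervals as bars. Filled blue circles are all WT barcodes, open triangles and squares are WT mouse 1 and mouse 2, and orange circles are all A20ZF7 barcodes; Igkv10-96 is at 14.1% in WT and 6.29% in A20ZF7, and intervals of the single mice are wide.

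The genes with the lowest A20ZF7 to WT usage ratios, among those with at least 1% of the chain in 1 genotype, rested mostly on few barcodes. Igkv6-13 had 5,724 UMIs in WT and 208 in A20ZF7, from 3 leading barcodes and 1. Ighv1-77 led 5 and 1 barcodes and Ighv9-2 led 3 and 1, and a single barcode held 63.1% of the WT Ighv9-2 UMIs. Igkv6-15 and Ighv14-2 rested on more. Igkv6-15 led 19 WT barcodes (4.39%) and 18 A20ZF7 barcodes (1.83%), a ratio of 0.416 (0.206–0.838), with 6.02% in mouse 1 and 4.95% in mouse 2. Ighv14-2 led 13 and 10 barcodes (3.05% and 1.10%), a ratio of 0.359 (0.141–0.887), with 1.504% in mouse 1 and 5.05% in mouse 2. Igkv17-121, named after its values were seen, led 17 and 12 barcodes (3.93% and 1.22%), a ratio of 0.310 (0.135–0.689), with 2.26% in mouse 1 and 4.95% in mouse 2.

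The genes with the highest ratios led no WT barcode. Ighv5-4 led 13 A20ZF7 barcodes (1.43%) and had 3 UMIs in WT plasma barcodes and 1,090 in A20ZF7. The exact interval for 0 among 426 WT heavy chain barcodes reached 0.862%, and that of the A20ZF7 to WT barcode ratio began at 1.42. Igkv14-100 led 9 barcodes (1 UMI in WT and 3,858 in A20ZF7), Ighv1-5 led 8 (0 and 1,093 UMIs), Ighv1-66 led 7 (3 and 902 UMIs) and Igkv3-12 led 7 (23 and 3,039 UMIs). For Igkv14-100, Ighv1-5, Ighv1-66 and Igkv3-12 the interval of the barcode ratio began at 0.867, 0.797, 0.673 and 0.633, and so included equal shares.

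Over all V genes, 125 led at least 1 barcode in both genotypes, 6 in WT alone and 35 in A20ZF7 alone, where 991 plasma barcodes were sampled against 433. A lead in at least 5 barcodes of 1 genotype and none of the other was found for 12 genes in A20ZF7 and for 1 in WT. Such a count favors the genotype with more barcodes: 5 light chain leads were 0.507% in A20ZF7 and 1.155% in WT. Of the 12, Ighv2-6, Ighv7-1 and Ighv9-4 (0.548% each) and Iglv3 (0.507%) were below what 0 allows in WT. The limits there were 0.862% for heavy and 0.848% for light genes. Ighv1-66 (0.7675%), Igkv13-85 (0.811%), Igkv3-12 and Igkv4-50 (0.710% each) were also below them. The 1 gene in WT was Igkv6-14, named for its lead in WT alone. It led 5 of 433 WT barcodes and 0 of 986 A20ZF7 barcodes, where 0 allows up to 0.373%. The effective number of heavy genes, the inverse of the summed squared barcode shares, was 27.4 in WT and 38.5 in A20ZF7, and that of light genes 23.6 and 39.7. Mouse 1 and mouse 2 gave 25.7 and 24.6 for the heavy and 18.5 and 24.5 for the light chain. They rest on 133 and 99 heavy chain and 133 and 101 light chain barcodes, against 912 and 986 in A20ZF7. The effective number tends to be lower where fewer barcodes are sampled, and the groups were not brought to equal numbers. The 5 leading genes of a genotype held 34.3% of heavy and 33.3% of light chain barcodes in WT, and 25.8% and 25.1% in A20ZF7.

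Across genes, the barcode shares of WT and A20ZF7 correlated with a Pearson coefficient of 0.83 for 83 heavy genes and 0.73 for 83 light genes. The coefficients between WT mouse 1 and mouse 2 were 0.59 over 59 heavy genes and 0.61 over 52 light genes, on fewer barcodes. These describe profiles across genes, which share libraries, sequence and depth and are not replicates.

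**Figure D3:**
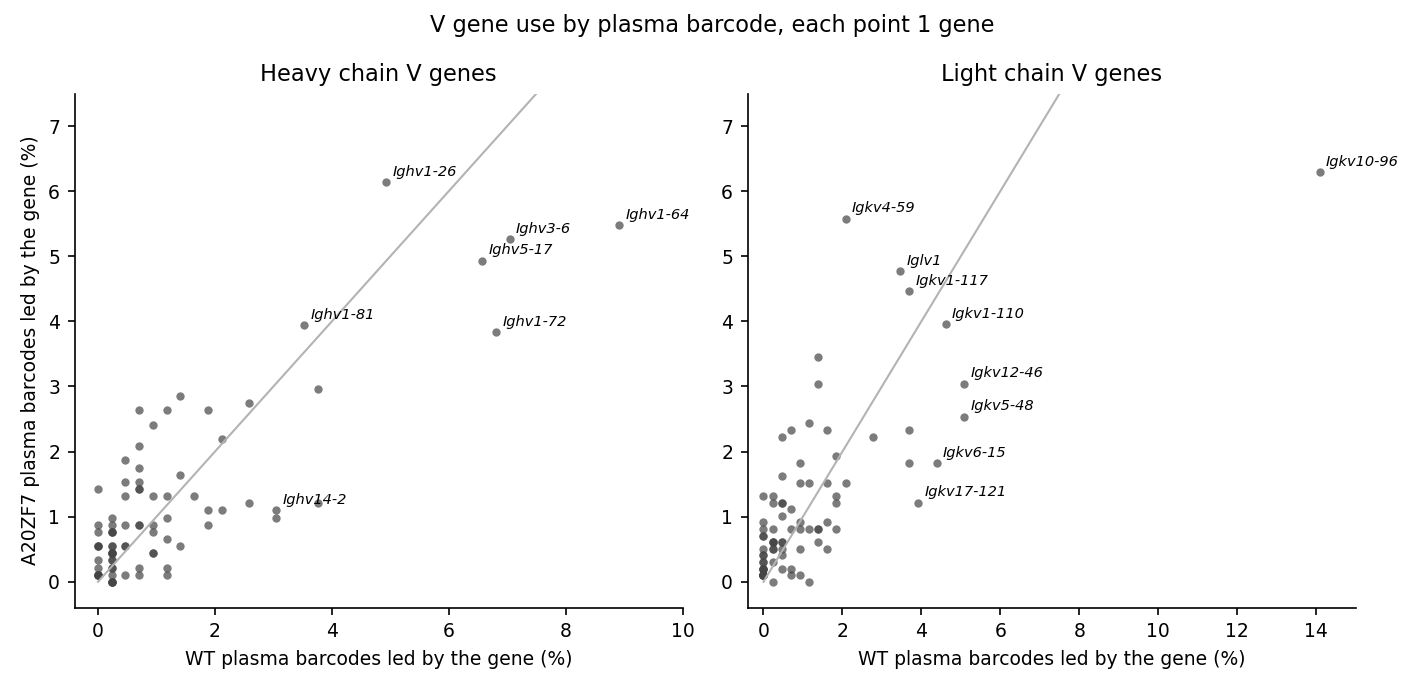
Percentage of plasma barcodes led by each V gene, WT on the horizontal and A20ZF7 on the vertical axis, for heavy (left) and light (right) chain genes. Each point is 1 gene and the gray line marks equal shares; Igkv10-96 lies farthest below it, at 14.1% and 6.29%, and Igkv4-59 above it at 2.08% and 5.58%.

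V genes fall into numbered subgroups by sequence. The Ighv1 subgroup, with 93 of the 185 heavy members, led 257 WT barcodes (60.3%) and 520 A20ZF7 barcodes (57.0%), with 60.9% in mouse 1 and 51.5% in mouse 2. Ighv5 led 9.86% and 12.6%, Ighv3 led 8.45% and 6.14%, and Ighv2 led 5.399% and 6.58%, each with a ratio whose interval included equal shares. Light chain subgroups were named after their values were seen. Igkv1, Igkv12, Igkv3 and Igkv8 had ratios of 1.17, 1.06, 1.025 and 1.27, each with an interval that included equal shares. Igkv5 had a ratio of 0.610 (0.3895–0.964) and Igkv2 of 2.81 (1.09–9.24). Igkv4 led 15.01% of WT and 20.6% of A20ZF7 barcodes, a ratio of 1.37 (1.03–1.84), with 14.3% and 17.8% in the mice. Igkv10 led 15.7% and 8.62% (0.549, 0.394–0.767), Igkv17 led 7.62% and 3.55% (0.466, 0.281–0.773) and Igkv6 led 13.2% and 8.32% (0.632, 0.445–0.902). The mice were at 17.3% and 8.91% for Igkv10 and at 3.76% and 9.90% for Igkv17, so that mouse 1 lay beside A20ZF7 for Igkv17 and mouse 2 lay beside it for Igkv10. Igkv13 led no WT barcode, where 0 of 433 allows up to 0.848%, and 21 A20ZF7 barcodes (2.13%), from Igkv13-84 and Igkv13-85 of its 18 members. The 723 Igkv13 UMIs of WT plasma barcodes, 719 of them of mouse 1, lay in barcodes that other genes led.

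Counts of closely related V genes were uncertain where reads could come from either. Of the 348 members, 125 shared at least 1 window of 90 bases with another member, as did 86 of the 166 that led a barcode, and 6 shared more than 50% of their windows. Ighv1-72 shared 52.8% of its windows with Ighv1-50, Ighv1-53 or Ighv1-62-3, Igkv1-117 and Igkv1-110 shared 21.9% and 22.1% with each other, and Igkv10-96 shared 15.6% with Igkv10-94. Igkv4-59 shared 28.7% with other Igkv4 genes, Igkv17-121 shared 16.4% with Igkv17-127, and Igkv13-84 and Igkv13-85 shared 40.3% with each other. Ighv3-6, Ighv5-17, Ighv1-64, Ighv1-81 and Igkv12-46 shared none.

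The annotation divides the members into 216 V genes, 130 V pseudogenes and 2 V-like genes. Of the 216 V genes, 166 led at least 1 plasma barcode (76.9%), 131 of them in WT and 160 in A20ZF7, and none of the 130 pseudogenes did. Pseudogenes held 73 of 492,970 V UMIs in WT plasma barcodes (0.0148%) and 77 of 352,591 in A20ZF7 (0.0218%).

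V genes lie 143 to 2,580 kb from the J segments on chromosome 12 for the heavy chain and 18.4 to 3,166 kb from them on chromosome 6 for kappa, and genes over the whole of both ranges led plasma barcodes. Members, pseudogenes included, were divided by order along the locus into 3 groups of equal size. From nearest to farthest these held 40, 33 and 40 functional V genes at the heavy chain locus and 43, 28 and 29 at the kappa locus. The shares below were not scaled by these numbers. At the heavy chain locus, the group nearest to the J segments led 30.05% of WT and 32.7% of A20ZF7 barcodes, the middle group 25.1% and 25.9%, and the farthest group 44.8% and 41.5%. At the kappa locus, the nearest group led 44.0% of the 416 WT and 38.3% of the 932 A20ZF7 kappa barcodes, the middle group 16.8% (13.4–20.8) and 25.6% (22.9–28.6), and the farthest group 39.2% and 36.1%. The middle group was at 17.3% in mouse 1 and 20.2% in mouse 2, both under the A20ZF7 value, and the interval of mouse 2 (12.6–29.8) covered it. The barcode at the median used a heavy chain gene at 1,359 kb in both genotypes and a kappa gene at 1,294 kb in WT and 1,344 kb in A20ZF7.

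**Figure D4:**
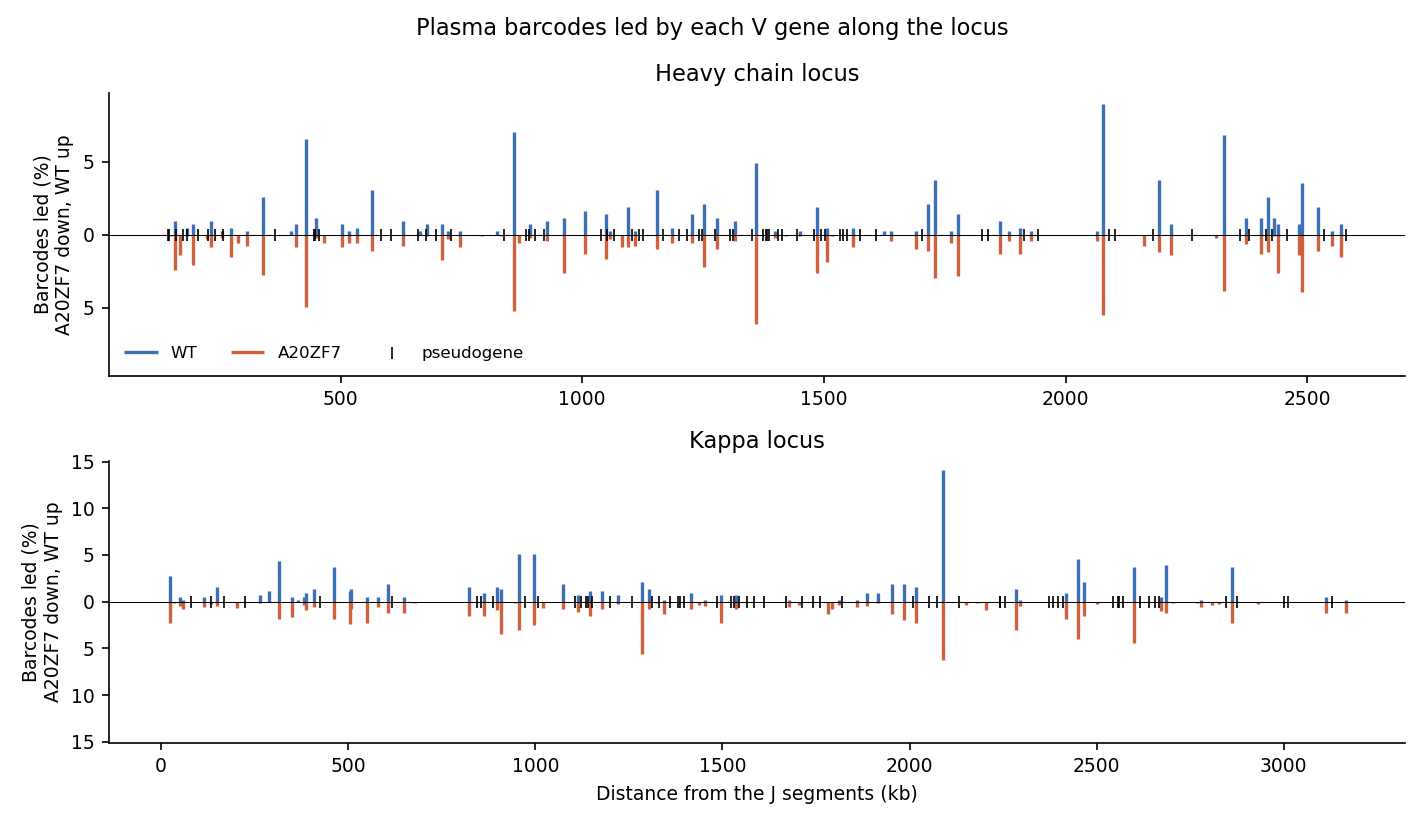
Percentage of plasma barcodes led by each V gene against its distance in kb from the J segments, at the heavy chain locus (top) and the kappa locus (bottom). Blue bars point up for WT, orange bars point down for A20ZF7 and black ticks mark annotated pseudogenes, none of which led a barcode; genes in use are spread over both loci in both genotypes.

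Heavy and light V genes were read together, and pairs are named below by their number of barcodes, in 426 WT and 912 A20ZF7 plasma barcodes. These held 272 and 533 different pairs, of which 63 and 179 were found in at least 2 barcodes, and such repeated pairs took in 50.9% of WT and 61.2% of A20ZF7 barcodes. This share tends to be lower where fewer barcodes are sampled. It was 29.3% in the 133 barcodes of mouse 1 and 17.2% in the 99 of mouse 2. The groups were not brought to equal numbers. Of all couples of 2 barcodes within a genotype, 0.487% had the same pair in WT and 0.208% in A20ZF7. Mouse 1 was at 0.615% and mouse 2 at 0.206%, so that mouse 2 lay beside A20ZF7. The WT pair in most barcodes was Ighv1-64 with Igkv5-48, in 15 barcodes (3.52%), of which 5 were of mouse 1, 1 of mouse 2 and 9 without a hashtag call. It was found in 0 of the 912 A20ZF7 barcodes, which allows a share of up to 0.404%. Ighv1-64 led 50 and Igkv5-48 led 24 of these. The A20ZF7 pair in most barcodes was Ighv6-3 with Igkv3-2, in 10 barcodes (1.10%) and in 0 of 426 in WT, which allows up to 0.862%. Ighv1-72 with Igkv10-96 was found in 12 WT barcodes (7 of mouse 1, 0 of mouse 2) and 6 A20ZF7 barcodes, and Ighv1-81 with Igkv1-117 in 5 and 9. Ighv1-78 with Igkv2-137 was found in 9 A20ZF7 barcodes, 9 of the 12 that Igkv2-137 led there with both chains read, and in 0 WT barcodes.

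Few pairs were shared. In all, 68 pairs occurred in both genotypes, 25% of the WT pairs and 12.8% of the A20ZF7 pairs. Mouse 1 and mouse 2 of WT shared 25 pairs, which were 23.4% of 107 and 27.8% of 90. Of 11 pairs in at least 5 WT barcodes, 4 had a barcode of each WT mouse and 6 were found in A20ZF7. A V pair does not identify a clone, since the joined sequence was not read.

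Lambda light chains were a minority in both genotypes. Iglv genes held 5.11% of light V UMIs in WT and 7.84% in A20ZF7, and they led 17 of 433 (3.93%, 2.30–6.21) and 54 of 986 barcodes (5.48%, 4.14–7.09), a ratio of 1.40 (0.796–2.57). Mouse 1 was at 6 of 133 (4.51%) and mouse 2 at 7 of 101 (6.93%). The UMI shares without the barcodes that held T cell genes were 4.85% and 8.38%. By constant genes, Iglc UMIs were 5.56% of light constant UMIs in WT and 5.73% in A20ZF7. The A20ZF7 to WT CPM ratios were 1.42 for Iglc1, 0.501 for Iglc2 and 0.356 for Iglc3. Iglc2 was found in 91.5% of WT and 67.1% of A20ZF7 plasma barcodes, far more than lambda genes led. The Iglc share is therefore not a count of lambda barcodes. Iglv1 led 15 and 47 barcodes, Iglv2 led 2 and 2, and Iglv3 led 0 and 5.

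The constant region genes show which class of antibody these V genes were joined to. Igha led 432 of 433 WT plasma barcodes (99.8%, 98.7–99.99) and 972 of 991 in A20ZF7 (98.1%, 97.0–98.8). The other A20ZF7 barcodes were led by Ighg1 (9), Ighg2b (7) and Ighg2c (3), which encode IgG heavy chains, and the other WT barcode by Ighg2b. In a list of 13 genes, Jchain and the constant genes, 10 had enough UMIs. Of these, 3 were past 2-fold higher (Ighg1, Ighg2b, Ighg2c) and 1 lower (Iglc3), beside 34.0% and 2.17% of all genes. The plasma gate had used several genes of this list, the 3 higher ones included. Ighg1 had 11 UMIs in WT and 2,529 in A20ZF7 plasma barcodes. Of 12 genes for V gene assembly and mutation, 2 had enough UMIs and Msh6 alone was past 2-fold (4 and 25 UMIs), and Rag1 and Rag2, which encode the recombinase, had 0 in both. Of 6 germinal center genes, 3 had enough UMIs and S1pr2 alone was past 2-fold (6 and 20 UMIs).

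B cell barcodes, with at least 2 of 11 B cell genes such as Ms4a1 and under 2% constant region UMIs, numbered 28 in WT and 30 in A20ZF7. They held 50 and 92 V UMIs, a median of 1 and 2 per barcode, against 991 and 277 in plasma barcodes. Igkv10-96 was the 1 V gene with enough UMIs to compare, with 2 in WT and 21 in A20ZF7, and a single A20ZF7 barcode held 19 of the 92 V UMIs. It was no longer past 2-fold, or no longer had enough UMIs, without that barcode or without the barcodes with the hashtag of WT mouse 1. Of all genes in B cell barcodes, 21.1% were past 2-fold, 15.1% higher and 5.99% lower. The 5 most used heavy genes had 0 to 1 UMIs each in WT and 0 to 3 in A20ZF7. Iglv1 had 7 and 4 UMIs, Iglv2 0 and 1, and Iglv3 0 and 2. T cell genes were found in 10.7% of WT and 46.7% of A20ZF7 B cell barcodes.

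Sparse barcodes hold too few UMIs to be kept as cells. There were 321,345 in WT with 27,656 V UMIs, 1.88% of their UMIs, and 343,451 in A20ZF7 with 7,233 V UMIs, 0.920%. Both shares were far below those of plasma barcodes and above the 0.126% and 0.113% of other kept barcodes, which had under 3 plasma cell genes, under 2% constant region UMIs and failed the B cell gate. The share depended on barcode size. In WT it was 1.25% in barcodes of 1 UMI and 2.27% in those of 41 to 50 UMIs, and in A20ZF7 it was 0.758% at 1 UMI, 2.01% at 11 to 20 UMIs and 1.01% at 41 to 50 UMIs.

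By usage, 62 of 108 V genes were past 2-fold between genotypes in sparse barcodes (57.4%), 31 higher and 31 lower (28.7% each), beside 11.3% of all genes by CPM (4.61% higher and 6.7% lower). Scaled by all UMIs, 17 V genes were higher (15.7%) and 57 lower (52.8%). Ighv5-17 took 10.2% of heavy V UMIs in WT and 24.9% in A20ZF7 (387 and 373 UMIs), where it was the highest, and Ighv3-6, the highest in WT, took 17.1% and 7.06% (651 and 106 UMIs). Ighv1-9 was at 4.302% and 7.80%, Ighv5-6 at 1.97% and 6.06%, and Ighv1-64 at 4.01% and 1.87%. Among light genes Iglv1 was at 9.38% and 7.22%, Igkv10-96 at 7.21% and 5.48%, Igkv17-121 at 8.95% and 2.09%, Igkv12-46 at 5.22% and 3.32% and Igkv12-44 at 2.31% and 5.51%.

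The lowest A20ZF7 to WT usage ratios were those of Igkv8-18 (264 and 3 UMIs), Igkv4-90 (295 and 4), Ighv5-16 (85 and 3), Ighv1-54 (59 and 3) and Ighv1-76 (149 and 10), from 0.0473 to 0.170. The highest were those of Igkv8-27 (24 and 62 UMIs; ratio 10.8), Igkv9-129 (39 and 60), Igkv9-120 (48 and 70), Igkv6-32 (48 and 69) and Igkv14-130 (60 and 84), the last at a ratio of 5.82 (4.13–8.25). The UMIs of the latter genes were within 1.54 times of each other between the libraries except for Igkv8-27, while total V UMIs were 27,656 and 7,233. Iglv2 had 112 and 5 UMIs and Iglv3 43 and 15.

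Usage differed less between genotypes in the smallest barcodes. In barcodes of 1 to 10 UMIs, which held 6,114 WT and 4,842 A20ZF7 V UMIs, 13 of 74 V genes were past 2-fold (17.6%), beside 8.13% of all genes by CPM. In barcodes of 11 to 50 UMIs, with 21,542 and 2,391 V UMIs, 54 of 90 were, beside 20.1% of all genes. These larger barcodes numbered 29,386 in WT and 6,347 in A20ZF7, with 981,985 and 194,272 UMIs. The window of 1 to 50 UMIs thus took unlike sets of barcodes from the 2 libraries. The Pearson coefficient of WT with A20ZF7 usage across genes was 0.96 for the heavy and 0.91 for the light chain in the smaller barcodes, and 0.37 and 0.61 in the larger ones. Ighv3-6 took 8.75% and 7.09% of heavy V UMIs in the smaller barcodes of WT and A20ZF7 but 21.8% and 6.96% in the larger, and Ighv5-17 took 19.2% and 25.4% in the smaller but 4.98% and 23.1% in the larger. In the libraries' own plasma barcodes Ighv5-17 was at 6.60% and 7.14%.

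**Figure D5:**
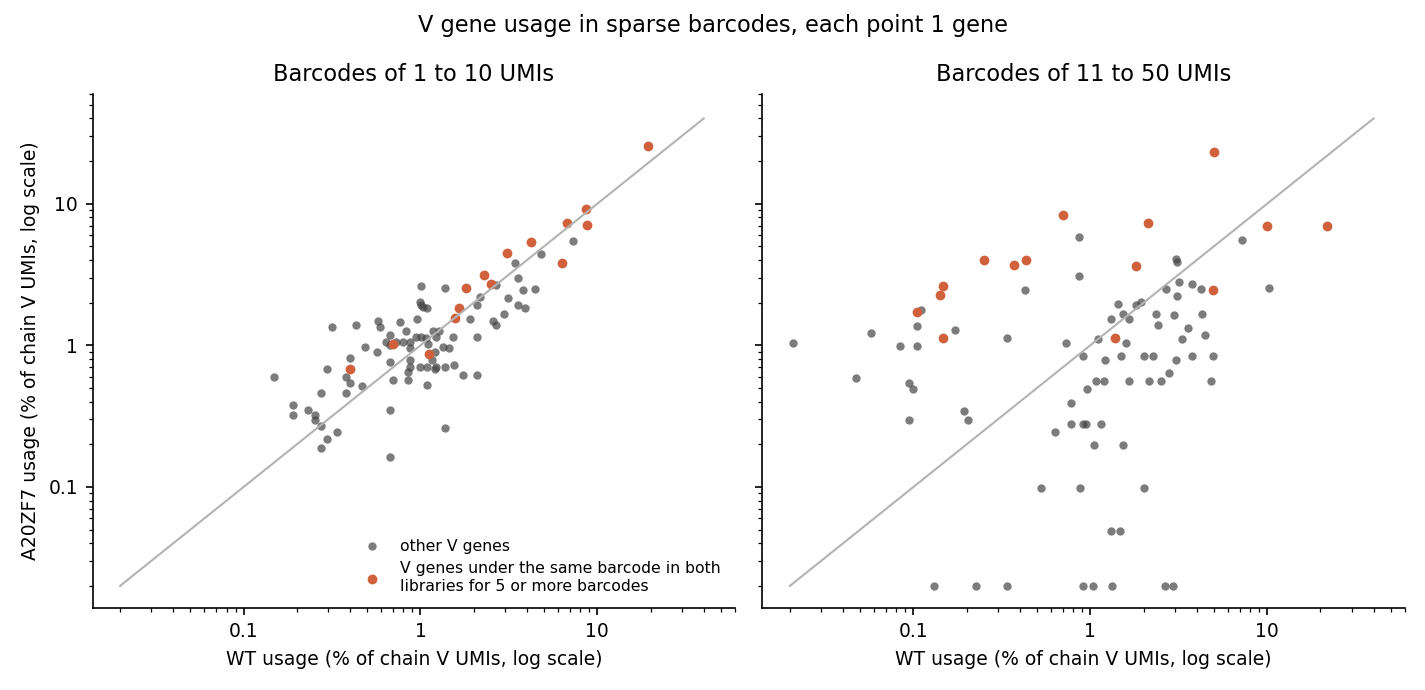
Usage of each V gene in WT (horizontal) and A20ZF7 (vertical) sparse barcodes of 1 to 10 UMIs (left) and 11 to 50 UMIs (right), as percent of chain V UMIs on log scales, for genes with at least 20 UMIs in both libraries together; values below 0.02% are drawn at 0.02%. Orange points are the 15 V genes found under the same sparse barcode in both libraries for at least 5 barcodes, and the points lie near the gray line of equal usage on the left and spread on the right.

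Part of this signal stood under the same barcodes in both libraries. Of V gene entries, meaning 1 gene in 1 sparse barcode, 290 recurred in the other library under the same barcode, 1.15% of the 25,136 WT entries and 4.70% of the 6,165 A20ZF7 entries, against 0.645% and 1.11% for genes that are not V genes. At least 5 such barcodes were found for 15 V genes. Ighv5-17 had 50 (of 343 WT and 295 A20ZF7 barcodes), Igkv16-104 had 28 (of 100 and 131), Igkv15-97 had 18 (of 96 and 81), Igkv18-36 and Ighv1-9 had 14 each, Igkv11-118 had 13 and Ighv5-6 had 11. Among genes that are not members, Trdv4, a V gene of the T cell receptor delta chain, had the most, 1,300 of 3,417 and 3,770 barcodes. Without V entries found under the same barcode anywhere in the other library, 4.57% of WT and 23.7% of A20ZF7 sparse V UMIs were gone, and 61 of 107 V genes were past 2-fold.

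Some V genes, named after their values were seen, were found almost only in sparse barcodes. Igkv11-118, a pseudogene, had 156 of its 164 UMIs in WT and 169 of its 180 UMIs in A20ZF7 there, and 0 in plasma barcodes of either genotype. Igkv15-97, also a pseudogene, had 161 of 166 and 150 of 165, and Igkv18-36, a functional V gene that led no plasma barcode, had 102 of 106 and 111 of 131. Their UMIs were nearly equal in both libraries, in barcodes with a median of 2 to 3 UMIs, and up to 20 UMIs of Igkv11-118 stood in 1 barcode of each library. Igkv16-104, with 167 and 182 sparse UMIs, led 1 WT and 5 A20ZF7 plasma barcodes. Pseudogenes made up 1.18% of V UMIs in WT and 4.69% in A20ZF7 sparse barcodes, against 0.0148% and 0.0218% in plasma barcodes. Their sparse UMIs were 325 and 339, of 27,656 and 7,233 V UMIs, so the shares differed mainly by the totals. Igkv11-118 and Igkv15-97 alone held most of these UMIs, with 156 and 161 in WT and 169 and 150 in A20ZF7. The 3′ ends of Igkv16-104 and Igkv18-36 shown above hold the full heptamer and the full nonamer ACAAAAACC, and that of Igkv11-118 holds neither.

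Usage in sparse barcodes was also set against usage in the plasma barcodes of the same library. In WT, 32 of 147 V genes were past 2-fold higher in sparse barcodes (21.8%) and 56 lower (38.1%). In A20ZF7, 26 of 166 were higher (15.7%) and 38 lower (22.9%). Of all genes by CPM, 65.2% were higher and 4.51% lower in WT, and 28.5% higher and 5.26% lower in A20ZF7. The measures are unlike, and V genes were not counted by CPM here. V genes supplied 1.88% of UMIs in sparse and 29.2% in plasma barcodes of WT, and 0.920% and 14.5% in A20ZF7. A higher usage is thus a larger share of V UMIs and not more RNA. Of 140 genes tested in both, 14 were lower in both and 10 were higher in both. The 10 were Igkv11-118, Igkv15-97, Igkv18-36, Igkv16-104, Igkv9-129, Igkv14-130, Igkv11-125, Igkv1-133, Igkv4-90 and Ighv7-3, 9 of them kappa genes. Igkv1-133 had 27 sparse and 9 plasma UMIs in WT and 45 and 274 in A20ZF7.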

How the data were processed

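Single-cell RNA-Seq counts of 1 WT and 1 A20ZF7 library and the WT antibody counts were used. The authors made 10x 5′ libraries; the submitters' processing notes name Cell Ranger 7.1 and mm10, and the file headers name Cell Ranger 8.0.0. The authors deposited raw UMI counts per gene and barcode, unfiltered. The antibody counts listed for A20ZF7 were identical to those of WT and were not used. Genes were matched by identifier. Barcodes with 200 to 2,500 genes and at most 15% mitochondrial UMIs were kept, and WT barcodes with both hashtags (HTODemux of Seurat 5.3.0, quantile 0.99, R 4.3.3) were removed; no other doublet caller was run. Plasma barcodes had at least 3 of 11 plasma cell genes and at least 5% of UMIs from 8 genes. The 8 were heavy constant genes, Igkc and Jchain, with no Iglc gene among them. B cell barcodes had at least 2 of 11 B cell genes and under 2% of UMIs from the same 8 genes. These gates were set after the marker distributions were seen and before V usage was compared. A leading V gene needed 5 V UMIs of its chain.

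With 1 library per genotype there was no test. Usage ratios past 2-fold were counted for genes with at least 20 UMIs in the higher genotype, with a count of 0 taken as 3. Intervals are exact 95% intervals (Clopper-Pearson for shares, conditional binomial for ratios) and cover counting error only, and since UMIs of 1 cell are not independent they are given for barcodes. Sparse barcodes are an exception, where they are given for UMIs. Plasma barcodes of 1 clone share V genes and are not independent either, so the intervals for barcodes can be too narrow. Named genes were the 5 heavy and 5 light genes of highest mean usage, the 5 highest and 5 lowest usage ratios among genes with at least 1% of their chain in 1 genotype, and all Iglv genes. The V genes and lists were chosen with earlier results of these data known. Alternatives covered gates, minimums, scaling and barcodes, and 4 were added after the data were seen. Sequences and positions came from GRCm38 with its GENCODE annotation. In simulated data all 200 genes changed 4-fold were called in plasma and in sparse barcodes, with 1.95% and 2.54% of the other genes. The simulation drew independent UMIs over all genes, scaled by all UMIs, and changed only genes with many WT UMIs. It held no barcodes and no clones, so these rates do not apply to calls on V gene usage. Python 3.11.15, numpy 2.4.6, scipy 1.17.1, pandas 2.3.3 and matplotlib 3.10.9 were used.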

Additional observations from a re-analysis of the deposited data

How the results depend on the processing

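Of 86 alternatives over 22 results, 64 stayed within the limits set for an equal value, 20 moved and 2 turned direction. For counts of V genes past 2-fold the limits took higher and lower genes together, so a turn in direction was not marked there. Those that stayed include an alternative meant to take all V gene identifiers of either library, in plasma, B cell and sparse barcodes. It reused the reported counts, so its equal values were fixed in advance and are no check on the gene lists. In plasma barcodes the count of V genes past 2-fold was 93 to 111 under every alternative but usage per barcode, which gave 55 of 118 genes. Scaled by all UMIs, however, 66 higher and 29 lower genes became 41 higher and 70 lower. In sparse barcodes the same scaling turned 31 higher and 31 lower into 17 higher and 57 lower. Both of these stand among the alternatives that stayed. Leaving out a WT mouse, here and below, removed only the barcodes with its hashtag. In plasma barcodes this gave 96 to 103, with the 199 WT barcodes without a hashtag call kept. It cannot show the count without that mouse, since barcodes without a call may be of either mouse. The light chain share of the 5 leading genes in A20ZF7 went from 26.9% to 22.5% per barcode, and the lambda share in A20ZF7 from 7.84% to 5.48% per barcode and 5.73% by constant genes. V UMIs per UMI, at an A20ZF7 to WT ratio of 0.497 in plasma barcodes, gave 0.793 for Iglv alone, and in sparse barcodes 0.489 became 0.737 for Ighv alone. In sparse barcodes the count of 62 became 13 in barcodes of 1 to 10 UMIs, 96 at a minimum of 5 UMIs and 105 at a minimum of 1 UMI. It was 64 of 100 tested genes in barcodes of 51 to 100 UMIs.

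B cell barcodes were unstable. Their count of 1 gene became 3 at a minimum of 5 UMIs and 6 at a minimum of 1 UMI, and 0 with a stricter marker gate, without T gene barcodes, without WT mouse 1 or without the barcode with the most V UMIs. The heavy chain share of leading genes in WT (80%) became 100% with the stricter gate and 0% without mouse 1, that in A20ZF7 (37.5%) became 16.7% without the top barcode and 0% with the stricter gate, and the light chain share in A20ZF7 (34.5%) became 17.9% without the top barcode and 7.14% with the stricter gate. The ratio of V UMIs per UMI, 1.11, reversed to 0.961 for Ighv and 0.601 for Iglv. Usage per barcode gave no value in B cell barcodes. The causes were not tested. No paired analysis was possible because each genotype had 1 library. Genotype, library, annotation release and the pooled mice cannot be told apart.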
